A study of Mus musculus with 4 samples.

Results

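Matrix metalloproteinases (MMPs), ADAMTS proteases and tissue inhibitors of metalloproteinases (TIMPs) were described across the cell types of the mouse lung. Members were all genes of the deposited feature list whose symbol is Mmp, Adamts or Timp followed by a number, which gave 45 of 31055 features: 22 MMPs, 19 ADAMTS proteases and 4 TIMPs. The cells came from dissociated lung and had been sorted to lack CD45, which marks leukocytes, and CD31, which marks endothelium. The mice were 8 weeks old, had received tamoxifen and carried Gli1CreERT2/WT and Rosa26mTmG/WT, so that cells with active Cre around dosing, and their descendants, switch from membrane tdTomato to membrane EGFP. The labels name B6D2F1/J in one field and C57BL/6J in another, and all cells share genotype and treatment. The 4 samples bear the same labels and lie in 1 matrix with no sample names on the barcodes. The data therefore count as 1 sample without replicates, no test was made, and every interval is a 95% interval that covers counting error only.

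MMPs are zinc-dependent endopeptidases, secreted as inactive proenzymes or held at the cell surface, that cleave collagens, proteoglycans, adhesion proteins and many signalling molecules. ADAMTS proteases are secreted relatives with thrombospondin repeats. Some cut large hyaluronan-binding proteoglycans such as versican, others trim procollagen or act on the fibrillin network. TIMPs bind the active site of MMPs and, in the case of Timp3, also that of several ADAMTS and ADAM proteases. In the lung, adventitial fibroblasts lie around vessels and airways, and alveolar fibroblasts lie in the alveolar wall.

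After filtering, 8933 of 11118 barcodes remained, with 76127432 unique molecular identifiers (UMIs, each counting 1 captured transcript) and a median of 7967 per cell. Clusters were built without the member genes and named from marker lists. The named classes were adventitial fibroblast-like (2425 cells), alveolar fibroblast-like (1802), peribronchial or myofibroblast-like (427), smooth muscle-like (180), mesothelial-like (209), alveolar type 1-like (210), alveolar type 2-like (1655), ciliated-like (238), club or secretory-like (72), leukocyte-like (89), endothelial-like (66) and cycling (41) cells. The 9 adventitial markers summed to 24629 CPM in adventitial-like and 3171 CPM in alveolar-like fibroblasts, and the 8 alveolar fibroblast markers to 4401 and 15993 CPM, though every class held some UMIs of each. The smooth muscle-like cluster scored almost equally on the pericyte list (mean z 3.314 for smooth muscle and 3.305 for pericytes), with smooth muscle genes leading it. Clusters 2 and 3, with 706 and 702 fibroblast cells, stayed unnamed. Cluster 2 was a near tie of the alveolar (mean z 0.663) and adventitial (0.55) fibroblast lists. Cluster 3 scored best on the adventitial list (0.951, next list 0.235), but its 10 highest genes held more markers of another list. Both clusters were counted in the broad mesenchymal set of 6451 cells, which also holds the mesothelial-like cells. Levels are given in CPM, UMIs of a gene summed over the cells of a class and scaled to a total of 1e6 UMIs in that class. The kit reads the 3′ end of each transcript once, so levels were not divided by gene length.

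The members were unevenly used in these lungs. Of the 45 genes, 28 had at least 100 UMIs over all kept cells, namely 10 MMPs, 14 ADAMTS proteases and all 4 TIMPs. Another 6 had between 20 and 99 UMIs (Mmp9 and Adamts3 with 87 each, Adamts20 with 63, Mmp8 with 49, Mmp25 with 23 and Mmp28 with 22), and 6 had 4 UMIs or fewer (Mmp24, Mmp13, Mmp12, Mmp10, Adamts13 and Adamts16). Mmp1b, Mmp7, Mmp20, Mmp21 and Adamts18 had 0 UMIs, which allows up to 3 UMIs in 76127432.

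The tandem array of MMP genes on chromosome 9 (mm10) shows this selectivity at 1 locus. It runs from Mmp13, which starts at 7272514, to Mmp7, which ends at 7699585, and holds Mmp12, Mmp1b, Mmp3, Mmp10, Mmp8, Mmp27 and Mmp20 between them. Mmp3, encoding stromelysin-1, had 19294 UMIs, whereas Mmp27 had 216, Mmp8 had 49, and the other 6 had 3 or fewer. The promoters of 4 of these genes are shown because they carry the same short words while their transcripts differ so widely. They are the 120 bases before the start of the gene in RefSeq (GRCm38.p6), 5′ to 3′ on the gene's strand, with capitals for an AP-1 word (TGAGTCA on either strand) and a TATA word (TATAAA on either strand).

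Mmp3 (chr9:7445702-7445821, + strand): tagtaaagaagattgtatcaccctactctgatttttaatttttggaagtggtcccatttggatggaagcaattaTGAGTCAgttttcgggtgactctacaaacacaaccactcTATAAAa
Mmp10 (chr9:7502222-7502341, + strand): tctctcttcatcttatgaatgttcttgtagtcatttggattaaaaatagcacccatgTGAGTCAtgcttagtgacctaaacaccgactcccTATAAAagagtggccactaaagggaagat
Mmp13 (chr9:7272394-7272513, + strand): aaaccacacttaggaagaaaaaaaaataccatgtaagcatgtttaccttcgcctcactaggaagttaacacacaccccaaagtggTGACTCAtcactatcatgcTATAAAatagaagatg
Mmp1b (chr9:7388027-7388146, - strand): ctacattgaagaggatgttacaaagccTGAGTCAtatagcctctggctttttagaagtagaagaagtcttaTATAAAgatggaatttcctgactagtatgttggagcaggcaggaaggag

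The AP-1 and TATA words did not overlap in any of these 4 stretches. AP-1 is the transcription factor family of Fos and Jun proteins. Over the 250 bases before the start, 31 members had an entry, and 6 of them held the AP-1 word: Mmp1b, Mmp3, Mmp7, Mmp10, Mmp12 and Mmp13, all of this array. Of all 32851 promoter entries, 4.46% held it. The TATA word was present for 8 members, against 12.4% of all entries. These units differ: the 31 members had 34 entries and counted once if any entry held the word, while the shares over all promoters are per entry. Mmp3, Mmp10, Mmp13, Mmp1b and Mmp7 held both words, and of these 5 genes Mmp3 alone had more than 3 UMIs.

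TIMP transcripts outnumbered those of all the proteases together in mesenchymal cells taken as a whole, though not in every class of them. TIMPs made up 60.4% of the 355859 member UMIs in mesenchymal cells (60.3% to 60.6%). The share was 83.2% in mesothelial-like cells (82.3% to 83.9%) and 80.0% in alveolar type 1-like cells (79.0% to 81.0%), and it was lowest among the named classes, at 36.9% (35.9% to 37.8%), in alveolar type 2-like cells. All members together reached 8653 CPM in adventitial-like fibroblasts, 4623 CPM in mesothelial-like cells, 4328 CPM in alveolar-like fibroblasts and 640 CPM in alveolar type 2-like cells.

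**Figure D1:**
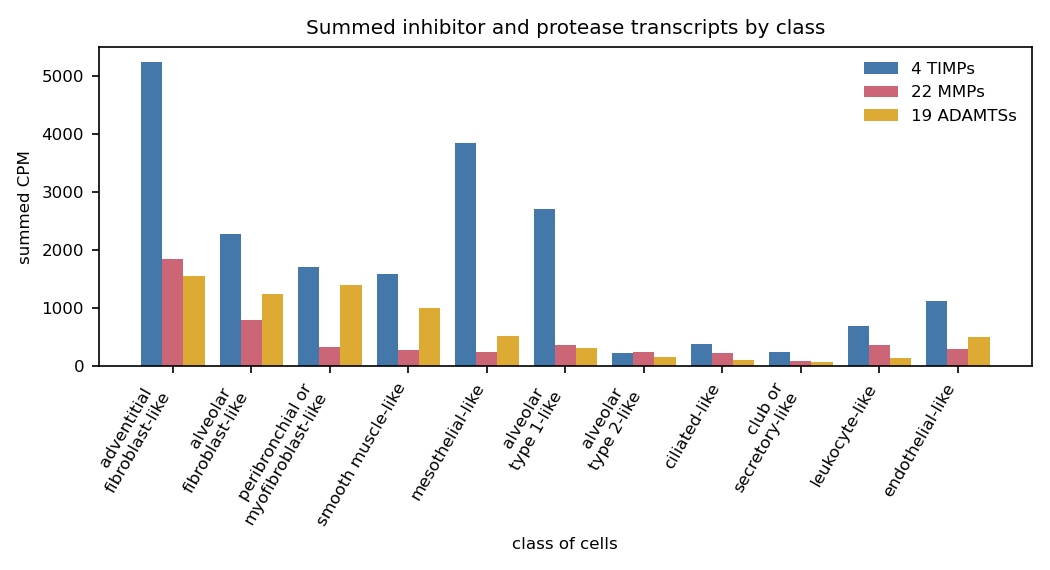
Summed CPM (vertical axis) of the 4 TIMPs, the 22 MMPs and the 19 ADAMTS proteases (bars) in 11 named classes of cells (horizontal axis), from 1 pooled sample. The TIMP bar reaches 5240 CPM in adventitial-like fibroblasts and 3845 CPM in mesothelial-like cells, while in alveolar type 2-like cells the MMP bar (246 CPM) is slightly above the TIMP bar (236 CPM).

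Timp3 and Timp1 had their highest level in adventitial-like fibroblasts, Timp2 in mesothelial-like and Timp4 in smooth muscle-like cells. Timp3 (ENSMUSG00000020044), an inhibitor that binds to the extracellular matrix, was the most abundant member, with 135615 UMIs. It had 2930 CPM in adventitial-like fibroblasts (2908 to 2952), 1805 in alveolar type 1-like cells, 1489 in alveolar-like fibroblasts, 1104 in peribronchial-like cells and 1034 in smooth muscle-like cells. Its 182 CPM in mesothelial-like cells was close to its 178 CPM in alveolar type 2-like cells. Timp2 (ENSMUSG00000017466), a soluble inhibitor that also takes part in activating pro-Mmp2 at the cell surface, had the opposite extreme. It was highest in mesothelial-like cells, at 3513 CPM (3429 to 3600), with 2038 CPM in adventitial-like fibroblasts, 884 in alveolar type 1-like cells, 683 in alveolar-like fibroblasts and 368 in smooth muscle-like cells. Both genes were abundant in adventitial-like fibroblasts, but mesothelial-like cells were high for Timp2 and low for Timp3. Timp1, a secreted inhibitor known to be inducible, had 272 CPM in adventitial-like fibroblasts, 145 in mesothelial-like cells and 102 in both alveolar-like fibroblasts and leukocyte-like cells. Timp4 (ENSMUSG00000030317), known for expression in heart and vessels, had 153 CPM in smooth muscle-like cells (133 to 175) and at most 8.68 CPM in any other named class, the ciliated-like cells. Timp1, Timp3 and Timp4 each lie inside a synapsin gene (Syn1, Syn3 and Syn2), on the other strand.

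**Figure D2:**
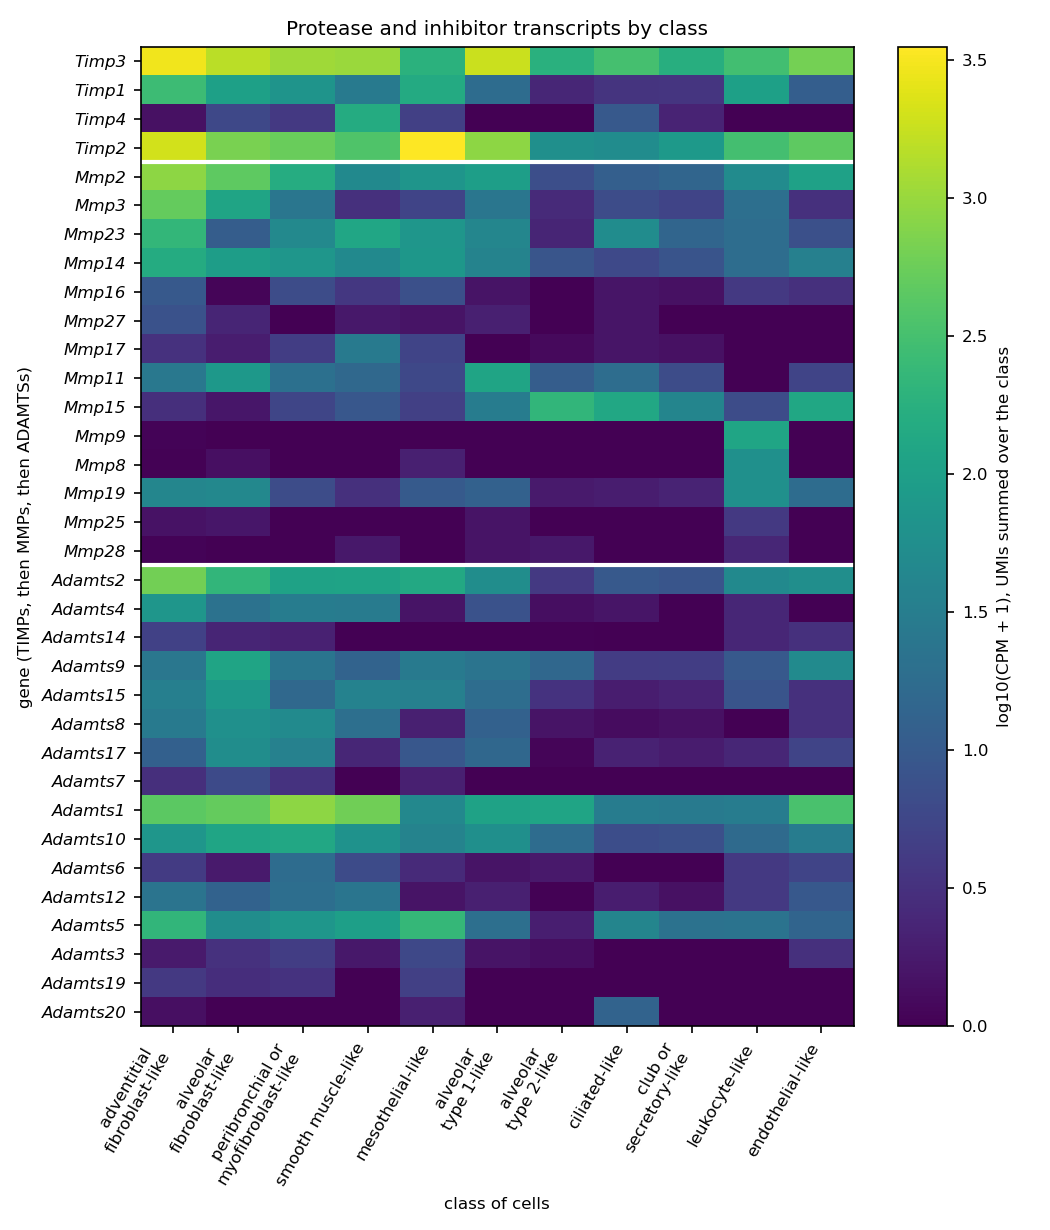
Heat map of log10(CPM + 1) for the 34 members with at least 20 UMIs (rows, grouped as TIMPs, MMPs and ADAMTS proteases) in 11 named classes of cells (columns). Most rows are brightest in the fibroblast columns on the left, with Mmp15 brightest in alveolar type 2-like cells, Mmp9 and Mmp8 in leukocyte-like cells, Adamts20 in ciliated-like cells and Timp4 in smooth muscle-like cells.

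Most members had a higher level in mesenchymal than in epithelial cells. Ratios were formed for genes reaching 30 UMIs in the 2 sets together, here 30 members. In mesenchymal relative to epithelial cells, 27 of these had a ratio of 2 or more and 2 had a ratio of 0.5 or less. Over all 14526 genes compared in the same way, 25.7% lay at or above 2 and 19.4% at or below 0.5. The median ratio was 14.2 for members and 1.15 for all genes. The 12 highest ratios included Mmp3 (90.05), Timp1 (71.1), Adamts12 (61.0), Adamts2 (60.6), Adamts4 (57.7), Adamts14 (52.4, from 1 epithelial UMI, interval 9.20 to 2087), Mmp2 (44.5), Mmp16 (38.7), Mmp27 (24.98) and Adamts8 (21.5). Adamts7 and Adamts19 had no epithelial UMI and were at least 23.7-fold and 21.3-fold higher in mesenchymal cells, taking 3 UMIs in the whole epithelial set as the floor. These sizes depended on the removal of doublets. With called doublets kept, the ratio was 13.6 for Mmp3, 10.0 for Timp1, 9.05 for Adamts12, 10.4 for Adamts2, 8.29 for Adamts4 and 9.10 for Mmp2. Collagen genes, which mark fibroblast RNA, had ratios of the same size, 75.2 for Col1a1 and 70.0 for Col3a1. Whether the few epithelial UMIs of such members were transferred fibroblast RNA was not tested. Mmp11 was at 35.5 CPM in mesenchymal and 19.5 CPM in epithelial cells, a ratio of 1.82.

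Mmp15 and Adamts20 were the exceptions. Mmp15 (ENSMUSG00000031790) encodes a membrane-bound MMP of the same type as Mmp14. It had 1.97 CPM in mesenchymal cells and 173 CPM in epithelial cells, a ratio of 0.0114 (0.00924 to 0.0140). By class it was at 217 CPM in alveolar type 2-like cells (210 to 225), 132 in ciliated-like, 130 in endothelial-like (99.3 to 167), 39.8 in club or secretory-like and 29.8 in alveolar type 1-like cells. A Mmp15 UMI was found in 82.2% of alveolar type 2-like cells (median 9428 UMIs) and in 0.333% of alveolar-like fibroblasts (median 4964 UMIs). With every cell thinned to 2000 UMIs, which left out 8 and 123 cells, these shares were 34.5% and 0.0596%. The endothelial-like cells also held Sftpc, a marker of alveolar type 2 cells, at 33914 CPM, against 191642 CPM in alveolar type 2-like cells. The part of alveolar type 2 RNA in the endothelial-like level of Mmp15 was not tested. Adamts20 was at 0.345 CPM in mesenchymal cells and 1.78 CPM in epithelial cells, and all 42 epithelial UMIs came from ciliated-like cells (12.6 CPM, 9.06 to 17). Ciliated-like cells held the club or secretory markers at 90470 CPM in sum and the ciliated markers at 11722 CPM. The club or secretory markers summed to 586807 CPM in club or secretory-like cells, which had 0 Adamts20 UMIs. The part of club RNA in the ciliated-like levels of Mmp15 and Adamts20 was not tested.

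Mmp11, Mmp9 and Mmp8 also had their highest levels outside the fibroblasts. Mmp11, stromelysin-3, had 117 CPM in alveolar type 1-like cells (102 to 133), 77.9 in alveolar-like fibroblasts (72.5 to 83.7) and 25.2 in adventitial-like fibroblasts. Alveolar type 1-like cells held some fibroblast RNA, with all 9 adventitial markers (1960 CPM in sum, against 24629 in adventitial-like cells) and all 8 alveolar fibroblast markers (5286 CPM in sum, against 15993 in alveolar-like cells). Col1a1 was at 354 CPM there and at 1236 CPM in alveolar-like fibroblasts. The part of fibroblast RNA in the Mmp11 and Timp3 levels of alveolar type 1-like cells was not tested. Mmp9, gelatinase B, and Mmp8, neutrophil collagenase, were leukocyte genes here. The leukocyte-like cells held 84 of 87 Mmp9 UMIs (121 CPM, 96.6 to 150) and 41 of 49 Mmp8 UMIs (59.1 CPM, 42.4 to 80.2). That cluster was 89 cells left after the CD45 sort. Its highest genes were Igkc, S100a9, Igha, Jchain and S100a8, so immunoglobulin genes led it beside the neutrophil genes S100a8 and S100a9. Mmp9 was found in 17.98% of its cells (median 6436 UMIs) and in 0.0412% of adventitial-like fibroblasts (median 8943 UMIs), and after thinning in 8.97% and 0%. Mmp19 was at 59.1 CPM in leukocyte-like cells, but 9 of their cells held 85.4% of its UMIs there, and it had 43.6 CPM in alveolar-like and 40.9 CPM in adventitial-like fibroblasts.

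Adventitial-like and alveolar-like fibroblasts differed in MMP, ADAMTS and TIMP levels in both directions. Of 29 members compared, 13 had a ratio of adventitial-like over alveolar-like of 2 or more and 8 had one of 0.5 or less. The shares over all 12321 genes compared were 10.1% and 9.8%. The median ratio was 1.94 for members and 0.927 for all genes. The 13 higher genes were 6 MMPs, 5 ADAMTS proteases and 2 TIMPs, and the 8 lower genes were 6 ADAMTS proteases, Mmp11 and Timp4.

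Among the secreted and membrane MMPs, Mmp3 was at 515 CPM in adventitial-like and 118 CPM in alveolar-like fibroblasts, a ratio of 4.36 (4.10 to 4.64). An Mmp3 UMI was found in 35.2% of adventitial-like cells and, as a background, in 1.57% of alveolar type 2-like cells of similar depth (medians 8943 and 9428 UMIs). After thinning, these shares were 23.9% and 0.546%. Mmp23, a membrane-tethered MMP with an unusual domain plan, was at 219 and 10.2 CPM, a ratio of 21.5 (17.6 to 26.5). Mmp16 was at 8.76 CPM (196 UMIs) in adventitial-like cells and had 1 UMI in alveolar-like cells, a ratio of 84.3 (14.95 to 3346), and one of 11.1 with thinned cells. Mmp27 had a ratio of 5.03 (2.85 to 9.66). Mmp2, gelatinase A, was below the 2-fold line, at 885 CPM in adventitial-like and 456 CPM in alveolar-like fibroblasts, and so was its cell-surface activator Mmp14, at 151 and 92.1 CPM. Mmp15 was called higher, but on 44 adventitial-like and 6 alveolar-like UMIs (ratio 3.15, 1.34 to 9.06), and its ratio fell under 2 in 4 of the alternatives below. Sftpc was at 631 CPM in adventitial-like and 833 CPM in alveolar-like fibroblasts. The part of alveolar type 2 RNA in their Mmp15 levels was not tested.

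Procollagen N-proteinases and proteoglycan-cleaving ADAMTS proteases (hyalectanases) were found on both sides. Adamts2, which removes the amino-terminal propeptide of fibrillar procollagen, was at 623 CPM in adventitial-like and 213 CPM in alveolar-like fibroblasts (ratio 2.92, 2.79 to 3.06). Adamts14, of the same subgroup, had 85 and 13 UMIs and a ratio of 2.81 (1.56 to 5.50) that turned to 0.792 when called doublets were kept. The aggrecanases Adamts5 and Adamts4 were at 217 and 72.4 CPM in adventitial-like cells and at 53.3 and 20.8 CPM in alveolar-like cells. Their ratios were 4.07 (3.71 to 4.46) and 3.48 (3.01 to 4.05). Adamts6 rested on 71 and 8 UMIs (ratio 3.82, 1.84 to 9.18), and Mmp17 on 49 and 9 UMIs (ratio 2.34, 1.14 to 5.42), which turned to 0.924 after thinning. Timp2 and Timp1 had ratios of 2.98 and 2.66, while Timp3 was just under 2-fold at 1.97.

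Among the genes lower in adventitial-like cells, Adamts9, a hyalectanase also known to act on versican, was at 24.5 CPM in adventitial-like and 118 CPM in alveolar-like fibroblasts (ratio 0.208, 0.187 to 0.230). Adamts17, which is linked to the fibrillin network, was at 11.2 and 53.1 CPM (ratio 0.210). Adamts15 and Adamts8, which are neighbours on chromosome 9, had ratios of 0.423 (0.381 to 0.469) and 0.460 (0.409 to 0.517). The other neighbouring pair, Adamts1 and Adamts5 on chromosome 16, differed, with ratios of 0.868 and 4.07. Mmp11 was at 25.2 and 77.9 CPM (ratio 0.323), Timp4 had 10 and 46 UMIs (ratio 0.0935), Adamts7 had 45 and 50 UMIs (ratio 0.387) and Adamts3, a procollagen N-proteinase, had 18 and 21 UMIs (ratio 0.369). The ratios of Adamts7, Adamts3 and Adamts8 rose above 0.5 in an alternative setting, up to 0.553, 0.607 and 0.581.

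**Figure D3:**
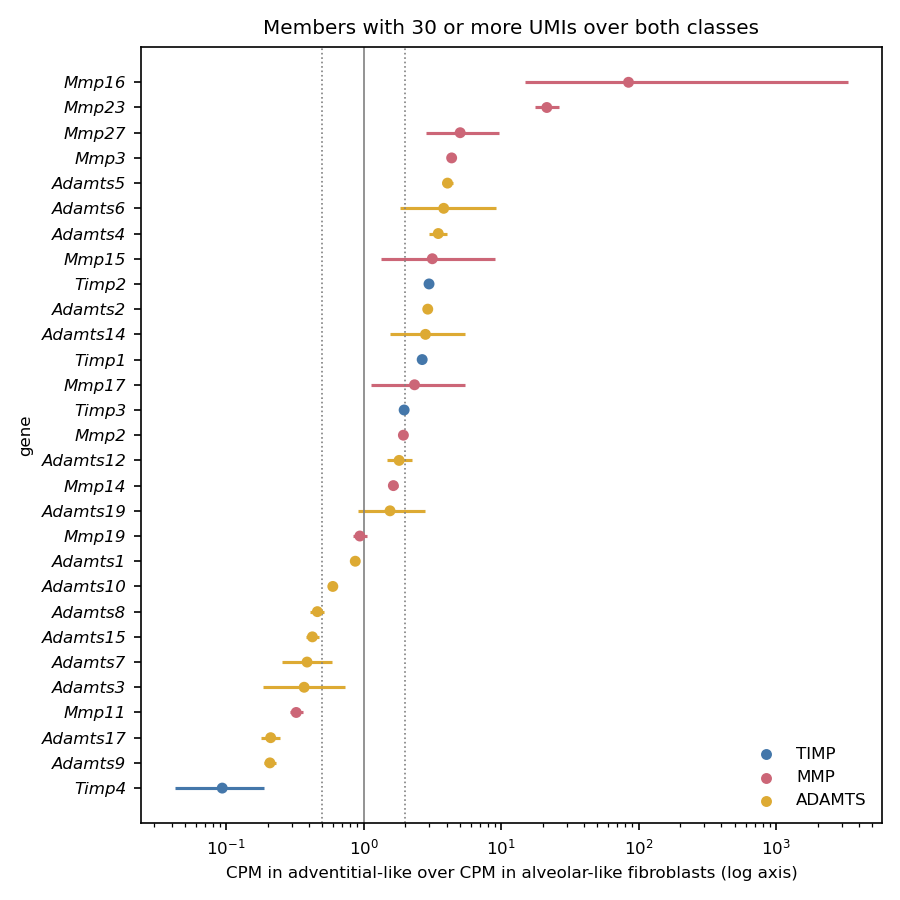
Ratio of CPM in adventitial-like over alveolar-like fibroblasts (horizontal log axis) for the 29 members compared (rows). Points are ratios, lines are 95% intervals for counting error, the solid line marks 1 and the dotted lines mark 0.5 and 2, with Mmp16 (84.3) and Mmp23 (21.5) at the top and Timp4 (0.0935) at the bottom.

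Within the adventitial-like class, levels of several members differed by cluster. Cluster 9 (532 cells) was led by Ccl8, Mmp3 and Ccl11 although Mmp3 was not used for clustering, cluster 8 (595 cells) was led by Ptx3, cluster 5 (654 cells) by Apod, and cluster 6 (644 cells) by Lamc3. Adh7, Bmp7 and Notum were also among the 10 highest genes of cluster 6. Mmp3 was at 1452 CPM in cluster 9, 486 in cluster 8, 259 in cluster 5 and 24.3 in cluster 6, with 733 CPM in the unnamed cluster 3. The 10% of adventitial-like cells with the most Mmp3 held 77.4% of its UMIs and 10.9% of all UMIs of the class. The same share was 28.2% for Mmp2 and 30.9% for Timp3. Mmp23 (404, 250, 163 and 89.5 CPM in clusters 9, 8, 5 and 6), Timp1 (568, 231, 227 and 109 CPM) and Timp2 (3053, 2429, 2012 and 795 CPM) were likewise highest in cluster 9 and lowest in cluster 6.

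Cluster 6 was the reverse for other members. Mmp2 was at 1476 CPM in cluster 6 and between 595 and 818 CPM in clusters 9, 8 and 5. Adamts8 had 85.2 CPM in cluster 6 against 1.04 CPM (5 UMIs) for cluster 9, and was at 58.3 and 61.3 CPM in the alveolar-like clusters 1 and 4. Adamts5 was at 26.8 CPM in cluster 6, 370 in cluster 8 and 45.3 in the alveolar-like cluster 4. Cluster 6 also stood nearest to the alveolar list of the 4 adventitial-like clusters, with mean z 0.639 for the adventitial and 0.413 for the alveolar list. Without cluster 9, the ratio of adventitial-like over alveolar-like fibroblasts was 2.19 for Mmp3, 1.87 for Timp1 and 0.581 for Adamts8. In that setting 13 members again had a ratio of 2 or more, and 7 in place of 8 had one of 0.5 or less.

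**Figure D4:**
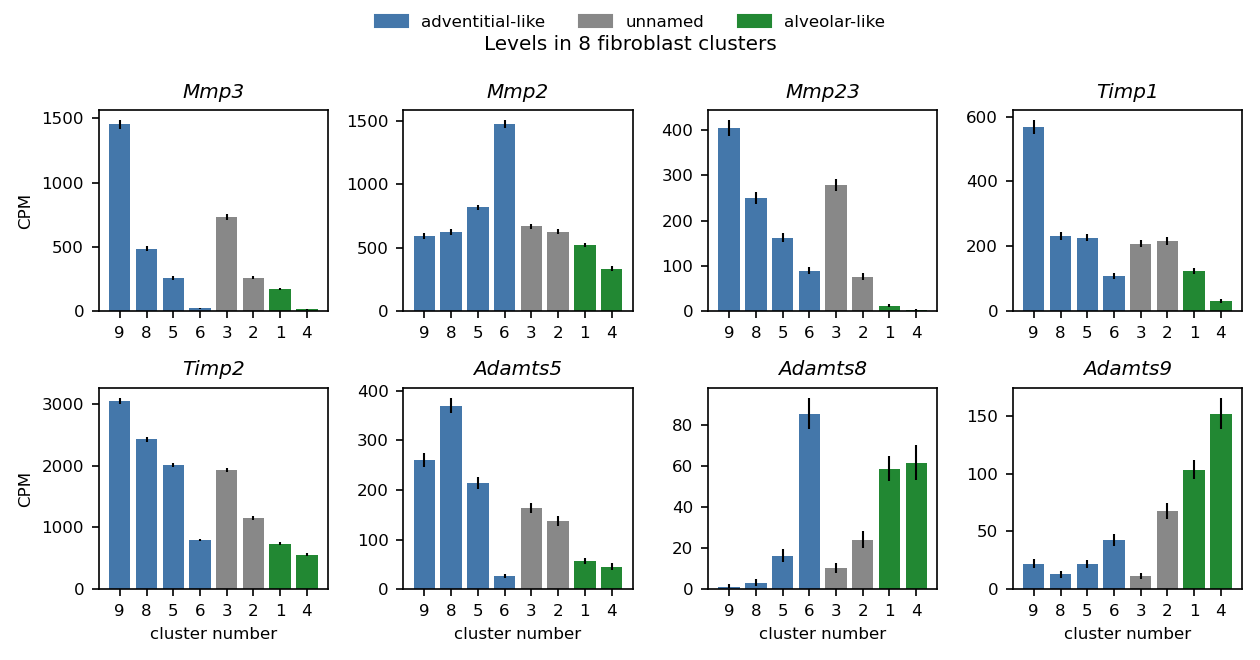
CPM (vertical axes, each from 0) of 8 members in 8 fibroblast clusters (horizontal axes, cluster numbers), 4 adventitial-like (9, 8, 5, 6), 2 unnamed (3, 2) and 2 alveolar-like (1, 4). Bars are levels and lines 95% intervals for counting error; Mmp3 peaks at 1452 CPM in cluster 9, Mmp2 at 1476 CPM in cluster 6 and Adamts9 at 152 CPM in cluster 4.

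Peribronchial or myofibroblast-like cells were set against all other mesenchymal cells. In this class the 9 markers of its own list summed to 13160 CPM and the 8 smooth muscle markers to 12728 CPM. Of 29 members, 3 had a ratio of 2 or more and 13 of 0.5 or less, with 7.76% and 12.8% of all 13212 genes at those sizes. Adamts6, a protease linked to fibrillin microfibrils, was at 16.9 CPM in peribronchial-like and 3.46 CPM in other mesenchymal cells, a ratio of 4.90 (3.21 to 7.27). Mmp15 and Adamts3 were also called higher, on 8 and 6 UMIs in these cells. Sftpc was at 2055 CPM there, and the part of alveolar type 2 RNA in the Mmp15 level was not tested. Mmp3 (ratio 0.0596), Mmp19 (0.151), Adamts2 (0.215), Mmp2 (0.227), Mmp23 (0.291), Timp1 (0.321), Adamts15 (0.324), Timp2 (0.329), Timp3 (0.424), Adamts5 (0.445), Timp4 (0.450, on 5 UMIs) and Mmp27 (0 UMIs, at most 0.386) were among the lower genes. All members together came to 3446 CPM in these cells. Timp3 was at 1104, Timp2 at 542, Timp1 at 67.2 and Timp4 at 2.82 CPM, so TIMPs and proteases were about equal there.

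Adamts1, a secreted hyalectanase, was the most abundant ADAMTS gene over all kept cells. In mesenchymal cells Adamts2 was above it, at 500 CPM against 474 CPM for Adamts1. Adamts1 had its highest level in peribronchial-like cells. It was at 882 CPM there (lower bound 839), 604 in smooth muscle-like cells, 511 in alveolar-like and 444 in adventitial-like fibroblasts, 334 in endothelial-like cells and 44.5 in mesothelial-like cells. A list of 10 immediate early and heat shock genes, chosen after the data were seen, summed to 39088 CPM in peribronchial-like, 38094 in alveolar-like, 27504 in adventitial-like, 22482 in smooth muscle-like and 11941 in mesothelial-like cells. Over the broad sets, that sum was 29209 CPM in mesenchymal and 9194 CPM in epithelial cells. Its part in the level of Adamts1 or of other inducible members was not tested.

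Smooth muscle-like cells were high for Timp4 and Mmp17. Relative to other mesenchymal cells, 3 of 29 members had a ratio of 2 or more and 14 of 0.5 or less, against 9.79% and 15.1% of all genes. Timp4 was at 153 CPM in smooth muscle-like and 1.72 CPM in other mesenchymal cells, a ratio of 89.1 (68.9 to 116). A Timp4 UMI was found in 42.2% of smooth muscle-like cells (median 7368 UMIs) and 0.371% of adventitial-like fibroblasts (median 8943 UMIs), and after thinning in 19.4% and 0.0413%. Some endothelial RNA was present in this cluster (5 of 7 endothelial markers, 47.8 CPM in sum against 8224 in endothelial-like cells, with Tie1 and Emcn at 0), and its part in the Timp4 level was not tested. The 66 endothelial-like cells had no Timp4 UMI, and 3 UMIs there would be 6.38 CPM. Mmp17, an MMP anchored to the membrane by a lipid, was at 28.4 CPM in smooth muscle-like and 2.18 CPM in other mesenchymal cells (ratio 13.04, 8.85 to 18.9). Mmp15 had 12 UMIs in smooth muscle-like cells (ratio 4.67). Sftpc was at 1960 CPM in these cells, and the part of alveolar type 2 RNA in their Mmp15 level was not tested.

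Several members were lower in smooth muscle-like cells than in the other mesenchymal cells, most of which were fibroblasts. They included Mmp3 (ratio 0.00524, on 3 UMIs, 0.00108 to 0.0153), Mmp19 (0.0555, on 3 UMIs), Adamts17 (0.0612, on 2 UMIs), Mmp2 (0.0702), Timp1 (0.135), Adamts2 (0.222), Timp2 (0.224), Adamts9 (0.268), Mmp14 (0.380), Timp3 (0.399) and Mmp11 (0.403). Mmp23 was not among them, at 126 CPM in smooth muscle-like and 156 CPM in other mesenchymal cells.

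Timp2 made up most of the member transcripts of mesothelial-like cells. Relative to other mesenchymal cells, 2 of 29 members had a ratio of 2 or more and 16 of 0.5 or less, against 15.2% and 14.9% of all genes. Timp2 was at 3513 and 1535 CPM (ratio 2.29, 2.23 to 2.35), and the other higher gene, Adamts3, rested on 9 UMIs. Timp3 was at 182 CPM in mesothelial-like and 2642 CPM in other mesenchymal cells, a ratio of 0.0689 (0.0617 to 0.0766). The lowest ratios were those of Adamts4 (0.0101, on 1 UMI, 0.000255 to 0.0562), Mmp3 (0.0107), Adamts12 (0.0286, on 1 UMI), Adamts8 (0.0345, on 2 UMIs), Adamts1 (0.0907) and Mmp2 (0.102), then Mmp27 (0.123, on 1 UMI), Mmp11 (0.132), Mmp19 (0.244), Adamts2 (0.266) and Adamts7 (0.348, on 2 UMIs). Among hyalectanases not called lower, Adamts5 was at 226 CPM in mesothelial-like and 158 CPM in other mesenchymal cells (ratio 1.43), while Adamts15 had a ratio of 0.770 (0.591 to 0.988) and Adamts9 one of 0.580. The 9 adventitial markers summed to 14433 CPM in mesothelial-like cells, against 24629 CPM in adventitial-like fibroblasts, and the 9 mesothelial markers to 13741 CPM there. The part of adventitial RNA in the mesothelial-like levels was not tested.

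Genes that work beside these proteases followed in part. A list of 44 related genes (substrates, procollagen C-proteinases, proprotein convertases, ADAM and ADAMTS-like genes, the plasminogen system and other inhibitors) was counted in the same way. In adventitial-like over alveolar-like fibroblasts, 18 of 39 had a ratio of 2 or more and 3 of 0.5 or less, where all genes gave 10.1% and 9.8%. The highest included Adamtsl3 (48.5), Pcsk6, a proprotein convertase (18.8), Fap, a serine protease of activated fibroblasts (18.4), and Ctsk, cathepsin K (7.40), with Col1a1 at 4.68, Col3a1 at 3.52 and Bmp1, the procollagen C-proteinase, at 4.49. The lower genes included Adamtsl2 (0.123) and Serpine2, a secreted inhibitor of serine proteases (0.225). In mesenchymal over epithelial cells, 28 of 40 were higher and 3 lower (all genes 25.7% and 19.4%), the lower ones being Lcn2, which binds Mmp9 (ratio 0.00644), Adam8 (0.130) and Adam19 (0.144). Substrates such as Eln (50.6) and Vcan (72.1) were on the mesenchymal side. Of 39 related genes, peribronchial-like cells had 3 higher and 12 lower (all genes 7.76% and 12.8%), smooth muscle-like cells 3 and 16 (9.79% and 15.1%), and mesothelial-like cells 5 and 17 (15.2% and 14.9%), so the numbers of higher genes were close to or below the background. Serpine2 was 6.99-fold higher in smooth muscle-like and 3.09-fold higher in peribronchial-like cells than in other mesenchymal cells.

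EGFP, the mark of past Gli1-driven Cre activity, went with ratios near 1 for most members over all mesenchymal cells. Mesenchymal cells with at least 1000 CPM of Egfp were matched to cells under 200 CPM of the same cluster and similar total UMIs, which gave 2002 reporter-high and 2002 reporter-low cells (medians 7977.5 and 7326.5 UMIs). These 2002 were taken from 2608 reporter-high cells, and the others were not used. Of 29 members, 0 reached 2 or 0.5, while 0.381% of 12608 genes lay at or above 2 and 0.547% at or below 0.5. Mmp16 was highest, at 7.81 CPM in reporter-high and 5.12 CPM in reporter-low cells (ratio 1.53, 1.14 to 2.05). Mmp2 was at 697 and 552 CPM, a ratio of 1.26 (1.23 to 1.30). The ratios of Mmp3 (1.14), Adamts2 (1.13), Timp2 (1.01) and Timp3 (0.907) were closer to 1.

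Within the fibroblast classes the same members did not all lean the same way. Matching kept 712 of 1093 reporter-high adventitial-like cells but all 505 reporter-high alveolar-like cells. Mmp2 was higher in reporter-high cells of both classes, by 1.31 (1.27 to 1.36) in 712 matched pairs of adventitial-like and 1.14 (1.06 to 1.23) in 505 pairs of alveolar-like cells. Mmp3 was at 634 CPM in reporter-high and 534 CPM in reporter-low adventitial-like cells (1.19), and at 108 and 171 CPM in alveolar-like cells (0.631, 0.545 to 0.730). Timp3 was at 2766 and 3305 CPM in adventitial-like cells (0.837) and at 1767 and 1601 CPM in alveolar-like cells (1.10). For Mmp3 and Timp3 the ratios of the classes lay on opposite sides of 1. The ratios come from UMIs summed over each side, and their intervals leave out the spread between cells. Without replicates this difference between classes was not tested. Ratios further from 1 were found in the small classes. In 51 pairs of smooth muscle-like cells, Adamts4 had a ratio of 3.63 (1.54 to 9.91, on 26 and 7 UMIs) and Mmp2 one of 3.30 (1.46 to 8.404, on 27 and 8 UMIs). In 168 pairs of peribronchial-like cells, Adamts4 had a ratio of 3.00 (1.54 to 6.30). In 92 pairs of mesothelial-like cells the ratios were 0.378 for Mmp23 (0.236 to 0.592), 0.461 for Adamts9 (0.212 to 0.947) and 0.527 for Mmp2 (0.348 to 0.787), so Mmp2 was lower in reporter-high cells there.

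**Figure D5:**
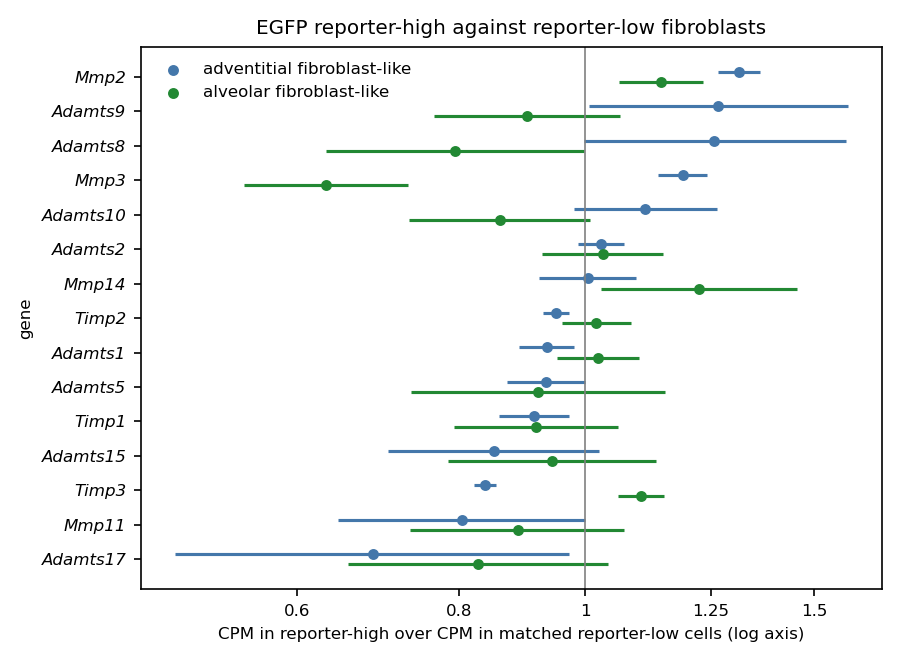
Ratio of CPM in reporter-high over matched reporter-low cells (horizontal log axis) for 15 members with at least 300 UMIs in the matched alveolar-like cells (rows), in adventitial-like and alveolar-like fibroblasts (colours). Points are ratios and lines 95% intervals for counting error. Mmp2 lies above 1 in both classes (1.31 and 1.14), while Mmp3 (1.19 and 0.631) and Timp3 (0.837 and 1.10) lie on opposite sides.

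The authors' deposited table of 17 clusters lists 40 members. In the authors' deposited table Mmp3 had its highest log2 fold change, 2.52, in cluster 2, followed by 1.51 in cluster 3, and those clusters also had the highest Pi16 (2.20 and 1.90). The same deposited table of the authors gave Timp4 4.98 and Mmp17 3.08 in cluster 6, where Acta2 was highest (6.93) but so were Ptprc (5.84), Pecam1 (5.22) and Hhip (4.31), and gave Timp2 1.72 in cluster 15, where Msln was highest (9.17). Mmp11 was highest in cluster 16 with Ager (1.98 and 5.26), Adamts9 in cluster 1 with Npnt (2.41 and 3.28) and Mmp15 in cluster 4 (2.57) of the authors' deposited table. Mmp9 (8.44) and Mmp8 (7.01) were highest in cluster 8 of the authors' deposited table, with Scgb1a1 (5.71), not in the cluster with the highest Ptprc. How those clusters were made and what each was compared with is not given in the labels or headers, and the values come from the same cells.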

How the data were processed

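The deposited matrix holds raw UMI counts that, per the submitters' processing notes, the authors made with Cell Ranger 3.0.0 on mm10. Kit versions differ between label fields. Per the file headers, the authors' deposited table holds, for each cluster, log2 fold changes and adjusted p-values whose test is not given.

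The filter asked for 500 or more detected genes and a mitochondrial share of 10% or less, which 9391 barcodes passed. Scrublet (expected rate 0.08) removed 458 doublets (4.88%). Clustering (scanpy 1.11.5, 2000 variable genes without members, mitochondrial, ribosomal and reporter genes, 30 components, 15 neighbours, Leiden resolution 1) gave 22 clusters. A cluster took the best of 19 marker lists, with at least 3 markers in 25% of its cells. It stayed unnamed where another list led its 10 highest genes, where cardiac genes led, or where lists lay within 0.2 mean z without a marker of its own among those genes. The cardiac and near-tie rules were set after seeing the data.

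Kept cells hold 699 to 77372 UMIs each. Levels have exact Poisson, ratios exact conditional binomial and shares Clopper-Pearson 95% intervals. Ratios needed 30 UMIs in the compared sets together. A set at 0 was given 3 UMIs, which makes the ratio an approximate bound without counting error in the other set. Such a ratio was called only where that bound passes 2 or 0.5, and medians hold it at the bound. Genes with 100 or more UMIs and, per comparison, up to 12 highest and 12 lowest ratios were named. Ratio calls were tested on simulated counts with counting error only, for the adventitial-like over alveolar-like and the mesenchymal over epithelial comparisons. That simulation held no spread between cells and no small classes, so it cannot speak for those. Gene positions are from GENCODE M21, and promoters from RefSeq. Members and lists were chosen with earlier results of these data known.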

Additional observations from a re-analysis of the deposited data

How the results depend on the processing

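No paired analysis was possible because the cells carry no sample names, and for the same reason no replicate could be left out. Over 14 alternative settings, 150 of 163 values of the counts and of the TIMP share stayed close to those given. Of 1084 ratios of called members, 1080 kept their direction, and 84 of 101 calls stayed past 2 or 0.5 in every setting that gave a value. In adventitial-like over alveolar-like fibroblasts the call was lost in at least 1 setting for Adamts3, Adamts4, Adamts7, Adamts8, Adamts14, Mmp15, Mmp17 and Timp1. Keeping doublets also moved Timp3 in mesothelial-like cells to 0.143. The TIMP share in mesenchymal cells was 60.64% with doublets kept, 60.59% at resolution 2.0, 59.5% with each cell of equal weight and 59.1% with cells thinned to 2000 UMIs. With thinned cells, and with a minimum of 100 UMIs, 5 in place of 8 members had a ratio of 0.5 or less in adventitial-like over alveolar-like fibroblasts, and 1 in place of 2 in mesenchymal over epithelial cells. With that minimum, 1 member in place of 3 was higher in peribronchial-like and 1 in place of 2 in mesothelial-like cells, where clustering and counting on separate parts of the UMIs also gave 1. With no minimum, 4 members were higher in mesothelial-like cells and 1 in reporter-high cells. The direction turned in adventitial-like over alveolar-like fibroblasts for Mmp17 after thinning (0.924) and for Adamts14 with doublets kept (0.792), and in smooth muscle-like cells for Mmp16 after thinning (1.38) and for Adamts3 with separate parts of the UMIs (1.16). The cause was not tested. At resolution 0.5 no cluster was named smooth muscle-like, so that comparison had no value. The alternative of counting unnamed fibroblast clusters with their best list was added after seeing the data, as were those without cluster 9 and with adventitial-like cells only. It gave ratios of adventitial-like over alveolar-like cells of 1.79 for Timp1, 1.84 for Adamts4 and 6.70 for Mmp23.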
